A study of Homo sapiens with 4 samples.

Results

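Interferon-stimulated genes are the genes that cells transcribe in response to interferon, and short hairpin RNAs (shRNAs) are known to be able to switch them on independently of the mRNA they target. A list of 35 such genes was therefore read as an off-target check on the shRNAs against dermcidin (DCD) in MDA-MB-361 cells, an established HER2-positive human breast cancer line. The members are those of a fixed list, and each was read by its brightest probe set that is annotated to a single gene, over the 4 arrays. Of the 35 members, 34 had such a probe set among 19775 named genes in all, and STAT2 was not analysed here. RNA was hybridized to 4 Affymetrix U133 Plus 2.0 arrays, 1 for each of 3 cell lines expressing a different DCD shRNA from the lentiviral pLKO-puro vector (IBC-I, IBC-II and IBC-III, the clones numbered 1, 2 and 3) and 1 for cells with the pLKO control vector. All 4 arrays thus come from cells of 1 line that carry the lentiviral vector, so a response to the vector itself would be in the pLKO array too, and the sources used here do not say whether that control expresses a hairpin. Every comparison sets 1 DCD shRNA array against pLKO, and the pLKO array has no replicate and enters all 3, so the differences carry no replicate error and the number of arrays limits the precision. Fewer cells that express a gene and less of its RNA per cell cannot be told apart in such bulk RNA.

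Double-stranded RNA in the cytoplasm is bound by sensors such as RIGI (RIG-I) and IFIH1 (MDA5), which lead to the production of type I and type III interferons. Secreted interferon acts through surface receptors and Janus kinases, and STAT proteins together with IRF9 then enter the nucleus and bind the interferon-stimulated response element (ISRE) in the promoters of the target genes. The products include enzymes that are themselves activated by double-stranded RNA, proteins that bind viral RNA, membrane proteins that block virus entry and the ubiquitin-like modifier ISG15.

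The arrays differed in signal and RNA quality. The deposited intensities had medians of 13.4 to 24.7 in the DCD shRNA arrays and 20.6 in pLKO, and 39.3% to 55.1% of probe sets in the DCD shRNA arrays and 43.4% in pLKO were under 16, the floor below which normalized values were set to 16. For actin, the 3' control probe set exceeded the 5' one by a ratio of 9.67, 2.58 and 42.6 on IBC-I, IBC-II and IBC-III, against 5.29 on pLKO, and IBC-III had the highest ratio of the 4. A high ratio is a known mark of degraded RNA. DCD itself was under the floor on every array, with deposited intensities of 2.7 to 7 in the DCD shRNA arrays and 2 in pLKO, so these arrays do not check the knockdown. All 8 markers of luminal breast epithelium were above the floor on every array, while of 5 leukocyte markers with a probe set 1 to 3 were above it in the DCD shRNA arrays and 1 in pLKO, with no deposited intensity over 35.6. Of 6 markers of fibroblasts and endothelium, 4 to 6 were above the floor in the DCD shRNA arrays and 3 in pLKO. Their summed deposited intensity was 276.3 to 486.8 in the DCD shRNA arrays and 354.1 in pLKO. Most of it came from COL1A1 alone, with 199.9, 253.9 and 212.3 on IBC-I, IBC-II and IBC-III and 228.2 in pLKO. The intensities below are after quantile normalization unless they are called deposited, and folds are ratios of normalized values with the floor. Sets of 3 values for the DCD shRNA arrays or comparisons run in the order IBC-I, IBC-II, IBC-III.

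Many interferon-stimulated genes had low signals, as did many other genes on these arrays. Of the 34 members with a probe set, 26 passed the filter on low values, which kept probe sets whose mean over the arrays reached 4.41 on the log2 scale, the median of all probe sets. The other 8 were IFIH1, BST2, RSAD2, IFI27, IFI44, IFI44L, XAF1 and TRIM22. Of all 19775 named genes, read in the same way, 12726 passed, so the members were not dimmer than the other genes by this filter. IFI6 (4.51) and IFITM1 (4.56) lay just inside the filter, and IFI27 (4.25) and XAF1 (4.25) just outside it. BST2 (tetherin), IFI44L and TRIM22 were at the floor on all 4 arrays. In pLKO 8 of the 34 members were at the floor. The share of all named genes, read in the same way, was not counted. The 43.4% under 16 in pLKO is not a like share, as it covers every probe set on deposited values. IFI6 was the 1 tested member at the floor in pLKO, so it passed the filter through the DCD shRNA arrays.

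As a list, the members were close to pLKO in every comparison. The median log2 difference of the 26 tested members was 0.068 for IBC-I, -0.071 for IBC-II and -0.0022 for IBC-III, beside medians of 0.0088, 0 and -0.11 over all 12726 tested genes. Over all 34 members with a probe set, without the filter, the medians were 0.021, 0 and 0. The study's rule asks for at least 3-fold. No tested member was 3-fold higher than pLKO in any of the 3 comparisons, where the share of all tested genes was 1.47% for IBC-I, 0.589% for IBC-II and 5.85% for IBC-III. At 3-fold lower there were 0 members for IBC-I (2.44% of all tested genes), 0 for IBC-II (1.03%) and 3 for IBC-III, or 11.5% of the members, close to the 11.6% of all tested genes. These were OAS3, IFITM2 and IFITM3. At 2-fold, OAS3, OASL, IRF9 and LGALS3BP were higher in IBC-I (15.4% of the tested members, beside 7.85% of all tested genes) and OAS1 and IFITM3 lower (7.69% beside 9.51%). In IBC-III, OASL and IFIT5 were 2-fold higher (7.69% beside 15.7%) and 6 members 2-fold lower (23.1% beside 23.2%), so that there the members did not stand out from the other genes. No member was 3-fold higher, and none 3-fold lower, in each of the 3 comparisons, beside 0.0314% and 0.181% of all tested genes. OASL, MX1 and ISG15 were higher than pLKO in all 3 comparisons at any size of difference (11.5% of the tested members, beside 18.9% of all tested genes), where MX1 and ISG15 in IBC-III turned lower in the values as deposited, and IFIT2, IFIT3 and ISG20 were lower in all 3 (11.5% beside 21.3%). The other 20 tested members went both ways or had no difference in 1 comparison. Against the values as deposited, the sign of the difference turned for 5 of the 26 members in IBC-I (IRF1, IFIT5, UBE2L6, SAMD9 and PARP9), 4 in IBC-II (EIF2AK2, OAS2, IRF7 and PARP9) and 10 in IBC-III (EIF2AK2, OAS1, IRF1, IRF7, IFIT1, MX1, MX2, ISG15, UBE2L6 and SAMD9), so directions given for these hold for normalized values. For PARP9 in IBC-II the turn came from a change of the brightest probe set and not from the scaling. limma, with the pLKO array assumed to vary like the 3 DCD shRNA arrays, passed 0 of the 26 members at an adjusted p under 0.05 and 0 at an unadjusted p under 0.05, with a smallest unadjusted p of 0.229 for OASL. Of all tested genes it passed 0% at an adjusted p under 0.05 in either direction, and 0.244% on the higher and 0.487% on the lower side at an unadjusted p under 0.05. In simulated data with this spread it found 0% of probe sets changed by 16-fold, so it has little power here. The methods' paired test had 2 members at an unadjusted p under 0.05, ISG15 (higher) and IFIT3 (lower), and 0 members and 0% of all tested genes after Benjamini-Hochberg adjustment. It had 4.67% of all tested genes at an unadjusted p under 0.05 on the higher side and 4.33% on the lower side.

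**Figure D1:**
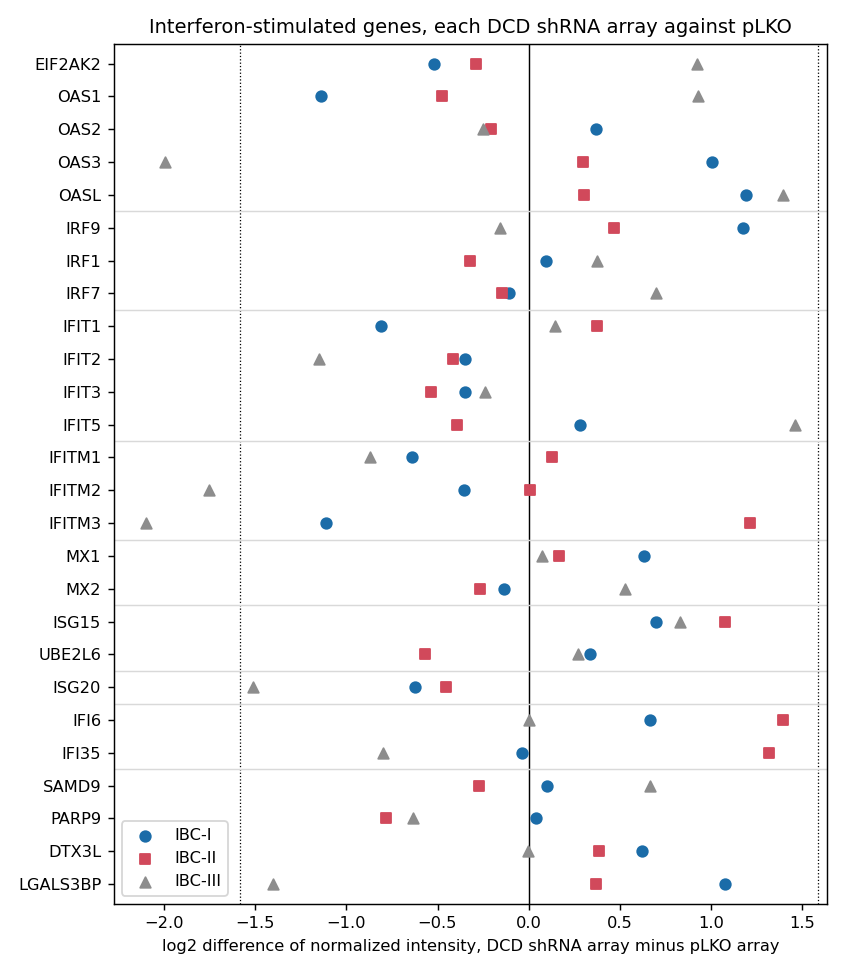
The 26 tested interferon-stimulated genes, grouped by role with grey lines between groups, with the log2 difference of each DCD shRNA array from pLKO on the horizontal axis. Circles stand for IBC-I, squares for IBC-II and triangles for IBC-III. The solid vertical line marks no difference and the dotted lines 3-fold. No point lies beyond 3-fold on the higher side, and the 3 points beyond it on the lower side are OAS3, IFITM2 and IFITM3 in IBC-III.

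**Figure D2:**
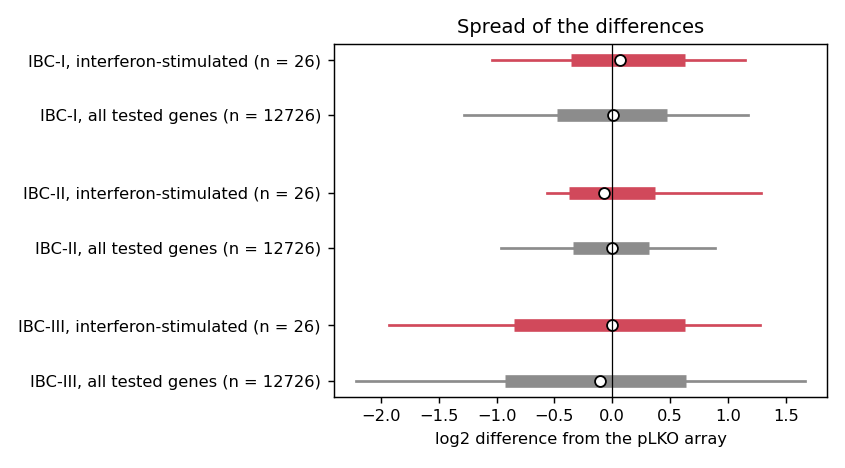
Spread of the log2 differences from the pLKO array in each comparison, for the 26 tested interferon-stimulated genes (red) and all 12726 tested genes (grey). Open circles are medians, thick bars run from the 25th to the 75th percentile and thin lines from the 5th to the 95th. The medians of the members lie at 0.068, -0.071 and -0.0022, and the thin line of the members in IBC-II reaches 1.29, against 0.89 for all tested genes. That upper end rests on a few members and was not tested. IFI6 is among them and passed the filter only through the DCD shRNA arrays.

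In IBC-II, the array with the lowest 3' to 5' ratio, a few members stood above pLKO. IFI6, IFI35, IFITM3 and ISG15 were at least 2-fold higher there, which is 15.4% of the tested members, beside 3.61% of all tested genes. No tested member was 2-fold lower, beside 4.58% of all tested genes. These 4 were picked out after their values were seen and the excess was not tested. IFI6 counts among the tested members only through the DCD shRNA arrays in which it was high, as pLKO was at the floor. Of these 4, IFI35 had no match to the core letters of an ISRE in the promoter window searched, which does not show that it lacks one elsewhere. To show the core in members that were and were not higher in IBC-II, the 170 bases before the annotated transcription start were read from RefSeq promoter windows (assembly GRCh38.p14, each window 250 bases before and 50 after the start). The core of an ISRE, written as GAAA, then 2 bases of any kind, then GAAA, was searched on both strands, with overlapping matches counted. Matches are in capitals in the sequences, and a match on the opposite strand reads TTTC, 2 bases, TTTC. The sequences are those of ISG15 (chr1:1013327-1013496, plus strand), IFI6 (chr1:27672193-27672362, minus strand), IFI27 (chr14:94110566-94110735, plus strand) and IFITM3 (chr11:320861-321030, minus strand), which had about 2-fold or more signal in IBC-II. IFI27 is not among the 4, as it did not pass the filter and, at 1.998-fold with the floor, also lay just under 2-fold. OAS3 (chr12:112938304-112938473, plus strand), IFIT1 (chr10:89392453-89392622, plus strand) and ISG20 (chr15:88638846-88639015, plus strand) carry the same core and did not reach 2-fold there.
ISG15: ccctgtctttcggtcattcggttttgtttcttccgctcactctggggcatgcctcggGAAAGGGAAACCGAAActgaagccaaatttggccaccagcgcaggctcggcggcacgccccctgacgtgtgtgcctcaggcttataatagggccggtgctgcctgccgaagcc
IFI6: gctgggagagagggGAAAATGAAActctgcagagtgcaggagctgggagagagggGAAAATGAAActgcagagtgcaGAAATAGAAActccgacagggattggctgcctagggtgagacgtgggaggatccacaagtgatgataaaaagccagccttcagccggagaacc
IFI27: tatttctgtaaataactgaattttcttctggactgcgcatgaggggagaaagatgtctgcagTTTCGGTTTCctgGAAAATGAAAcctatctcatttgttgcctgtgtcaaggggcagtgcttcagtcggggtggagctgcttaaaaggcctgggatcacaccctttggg
IFITM3: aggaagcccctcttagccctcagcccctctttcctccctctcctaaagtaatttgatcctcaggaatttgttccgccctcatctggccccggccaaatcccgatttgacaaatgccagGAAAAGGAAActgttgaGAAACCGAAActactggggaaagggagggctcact
OAS3: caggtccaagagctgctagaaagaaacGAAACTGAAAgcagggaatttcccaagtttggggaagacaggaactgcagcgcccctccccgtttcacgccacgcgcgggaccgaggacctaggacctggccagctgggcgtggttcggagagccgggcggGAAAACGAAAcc
IFIT1: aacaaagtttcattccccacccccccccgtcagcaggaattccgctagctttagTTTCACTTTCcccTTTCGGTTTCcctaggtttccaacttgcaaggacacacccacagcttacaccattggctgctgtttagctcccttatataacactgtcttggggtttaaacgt
ISG20: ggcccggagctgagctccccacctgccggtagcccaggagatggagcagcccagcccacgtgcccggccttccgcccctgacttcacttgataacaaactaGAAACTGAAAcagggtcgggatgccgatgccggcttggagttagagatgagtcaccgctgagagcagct

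Of the 35 members, 28 had a promoter window and 21 of these held the ISRE core, while 4.38% of all 27305 genes with a window did (3.57% of 35116 windows). IFI6 held 3 matches, ISG15 held 2 that overlap, IFI27 held 2 on opposite strands, and IFITM3, OAS3 and IFIT1 held 2 each. IFI35 held none, and was 1 of 8 of the 28 members with the letters TTCNNNGAA of the gamma-activated site, which were in 9.38% of all genes with a window. Members with and without the core were found among those that were higher. The 15 tested members with it had median log2 differences of 0.099, 0.17 and -0.0044, and the 5 tested members with a window but no core had 0.094, -0.32 and 0.27. Of the 15, 3 were at least 2-fold higher in IBC-II, IFI6 among them, and of the 5 it was 1. These are letter matches in a window and not measured binding sites.

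**Figure D3:**
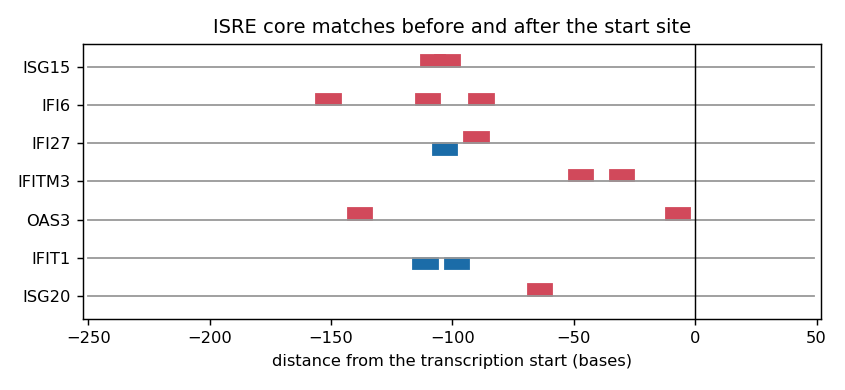
Positions of the ISRE core letters in the promoter windows of 7 members, as distance in bases from the annotated transcription start (vertical line). Red boxes above a line are matches on the strand of the gene and blue boxes below it are matches on the opposite strand. IFI6 has 3 matches, ISG20 has 1 and the others have 2 each.

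ISG15, a ubiquitin-like protein that is joined to other proteins and is among the most strongly induced interferon targets, had a normalized intensity of 103.3, 134.4 and 113.5 on the DCD shRNA arrays, against 63.8 in pLKO. All 3 DCD shRNA arrays were above pLKO, by 1.62-fold, 2.11-fold and 1.78-fold, with a mean of 0.87 ± 0.19 on the log2 scale (SD, n = 3 comparisons). It was also the tested member with the smallest p of the methods' paired test, 0.0160 before adjustment, while limma's unadjusted p was 0.231. The deposited intensities were 84.9, 206.4 and 57.8 in the same order, against 72.8 in pLKO, so the log2 difference in IBC-III was -0.33 as deposited and 0.29 with median centring. UBE2L6, the enzyme that carries ISG15 to its substrates, had 118.0, 63.0 and 112.8, against 93.6 in pLKO, and was above pLKO in IBC-I and IBC-III and below it in IBC-II.

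IFI6, a small mitochondrial protein that protects cells from apoptosis, had deposited intensities of 25.3, 56.6 and 9.3 on the DCD shRNA arrays, against 6.2 in pLKO. With pLKO at the floor after normalization it was at least 1.59-fold higher in IBC-I and at least 2.62-fold higher in IBC-II, while IBC-III was itself at the floor. IFI27, a related protein, had deposited intensities of 12, 41.6 and 3.6, against 4.2 in pLKO. It was above the floor in IBC-II alone, by at least 1.998-fold. IFI35, which binds the interferon-induced protein NMI, had normalized intensities of 29.4, 75.2 and 17.4, against 30.2 in pLKO, so that IBC-II was 2.49-fold above pLKO while IBC-I was 1.03-fold and IBC-III 1.74-fold below it. These 3 genes were higher than pLKO in IBC-II under quantile normalization, with median centring and as deposited. IFI44 was by its brightest probe set above the floor in IBC-I alone, at 22.0, and by its other probe set in IBC-II alone, at 20.5. IFI44L had deposited intensities of 0.8 to 1.1 in the DCD shRNA arrays and 0.8 in pLKO.

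**Figure D4:**
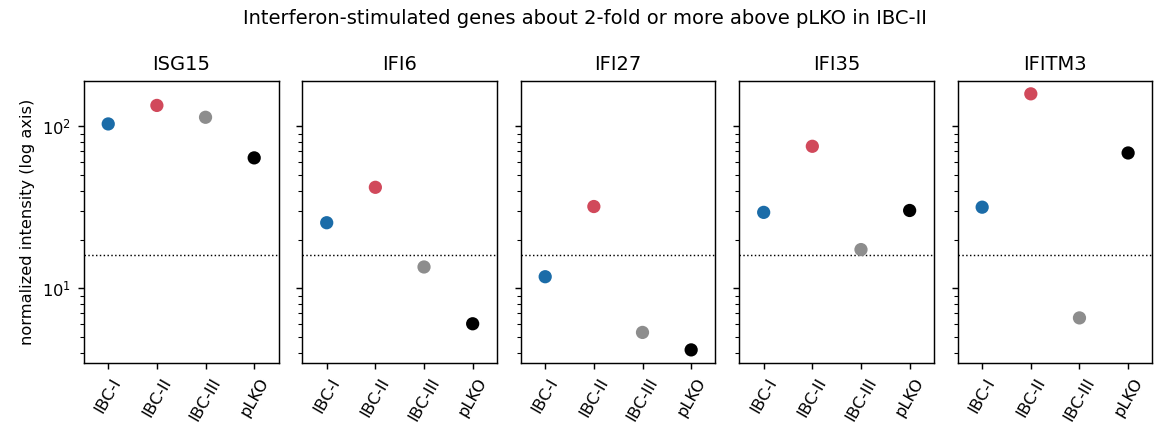
Normalized intensity on a log axis of ISG15, IFI6, IFI27, IFI35 and IFITM3 on the 4 arrays, 1 point for each array, with the floor of 16 as a dotted line. Points under the line are set to 16 in the comparisons. IBC-II is the highest array for all 5 genes, and ISG15 is the only one of them above pLKO in all 3 DCD shRNA arrays after the floor is applied, although in the values as deposited its IBC-III array is below pLKO.

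The IFITM proteins sit in cell membranes and block the entry of viruses. IFITM3 had a normalized intensity of 31.7, 158.4 and 6.58 on the DCD shRNA arrays, against 68.4 in pLKO. It was 2.32-fold higher in IBC-II, 2.16-fold lower in IBC-I and, at the floor, at least 4.28-fold lower in IBC-III. IFITM2 had 66.0, 84.8 and 25.1, against 84.6 in pLKO, level with pLKO in the IBC-II array and 3.37-fold below it in the IBC-III array. IFITM1 had 19.2, 32.8 and 16.4, against 30.0 in pLKO. All 3 were below pLKO in IBC-I and IBC-III, the arrays whose 3' to 5' ratios were higher than that of pLKO, and the part of RNA quality in this was not tested. IFITM2 and IFITM3 were each read by a single probe set of the _x_at type, whose probes can bind other transcripts, and these near-identical paralogs may share signal.

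The OAS enzymes make short adenylate chains, which act as a second messenger, when they bind double-stranded RNA. OAS1 had a normalized intensity of 8.70, 25.4 and 67.2 on the DCD shRNA arrays, against 35.3 in pLKO, and was at the floor and at least 2.20-fold lower in IBC-I. OAS2 had 49.0, 32.9 and 31.9, against 38.0 in pLKO, while its second tested probe set was higher in all 3 comparisons, with log2 differences of 0.29, 1.32 and 0.43. OAS3 had 127.5, 78.1 and 11.4, against 63.7 in pLKO, which is 2.00-fold higher in IBC-I and at least 3.98-fold lower in IBC-III, where it was at the floor. By the brightest probe sets, OAS1 was below pLKO in IBC-I and IBC-II and above it in IBC-III, and OAS3 was the reverse. The other probe set of OAS1, which did not pass the filter, had log2 differences of -0.32, 0.18 and -0.39, so the direction of OAS1 in IBC-II and IBC-III differed between its probe sets. OASL, an OAS-like protein without the enzyme activity, had 70.2, 38.0 and 80.9, against 30.8 in pLKO, or 2.28-fold, 1.23-fold and 2.63-fold higher. OASL was higher in all 3 comparisons under each scaling tried, while its other tested probe set had log2 differences of -0.83, 0.14 and -0.96. EIF2AK2 (PKR), the kinase that stops translation when it binds double-stranded RNA, had 109.8, 128.6 and 297.4, against 157.0 in pLKO, and was below pLKO in IBC-I and IBC-II and 1.89-fold above it in IBC-III. All 3 of its tested probe sets were below pLKO in IBC-I and above it in IBC-III after normalization, while in IBC-II their log2 differences were -0.29, -0.11 and 0.91. IFIH1, the sensor of long double-stranded RNA, was by its brightest probe set above the floor in IBC-I alone, at 26.3. Another of its probe sets was at the floor there and above it in IBC-II at 23.4 and in IBC-III at 17.4.

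IFIT1 binds viral RNA that lacks the cap methylation of the host, and IFIT2 and IFIT3 form complexes with it. IFIT1 had a normalized intensity of 7.98, 36.4 and 31.0 on the DCD shRNA arrays, against 28.0 in pLKO, and was at the floor in IBC-I, at least 1.75-fold lower. IFIT2 had 27.9, 26.6 and 6.12, against 35.6 in pLKO, and IFIT3 had 23.6, 20.7 and 25.4, against 30.0 in pLKO. IFIT2 and IFIT3 were below pLKO on every DCD shRNA array, also with median centring and as deposited, by 1.18-fold to 1.45-fold for IFIT3 and 1.28-fold to at least 2.22-fold for IFIT2. For IFIT3 the second tested probe set was above pLKO in all 3 comparisons, with log2 differences of 0.57, 0.12 and 0.36, so the direction of IFIT3 depends on the probe set. The other probe set of IFIT2, under the filter, had -0.24, -0.24 and 0.036. IFIT5 had 63.1, 39.4 and 142.6, against 51.9 in pLKO, and was 2.75-fold higher in IBC-III by its brightest probe set, while the second had log2 differences of -0.11, -0.22 and 0.35.

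Of the transcription factors, IRF9, the DNA-binding partner of the STAT proteins, had a normalized intensity of 82.5, 50.5 and 32.8 on the DCD shRNA arrays, against 36.6 in pLKO. IBC-I was 2.25-fold and IBC-II 1.38-fold above pLKO, and IBC-III was 1.12-fold below it. IRF1, which interferon gamma induces, had 60.3, 45.1 and 73.2, against 56.4 in pLKO. IRF7, which amplifies the transcription of type I interferon genes, had 41.9, 40.8 and 73.2, against 45.1 in pLKO. For IRF1 and IRF7 no array differed from pLKO by 2-fold. The dynamin-like GTPases that trap viral particles were also near pLKO: MX1 had 34.1, 24.8 and 23.2, against 22.0 in pLKO, and MX2 had 40.2, 36.7 and 63.6, against 44.1 in pLKO. MX1 was above pLKO on all 3 DCD shRNA arrays by 1.05-fold to 1.55-fold, and in IBC-III its log2 difference was -0.52 as deposited.

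ISG20, an RNA exonuclease, had a normalized intensity of 95.1, 107.1 and 51.5 on the DCD shRNA arrays, against 146.6 in pLKO. It was below pLKO on every DCD shRNA array, by 1.54-fold, 1.37-fold and 2.85-fold, and its other tested probe set was too, with log2 differences of -1.87, -0.055 and -1.87. In the values as deposited it was lower in all 3 as well, though by a log2 difference of only -0.090 in IBC-II. RSAD2 (viperin), which makes a chain-terminating nucleotide, was above the floor in IBC-II at 19.6 and in pLKO at 17.2, and at the floor in IBC-I and IBC-III. LGALS3BP, a secreted glycoprotein, had 1255, 769.4 and 225.4, against 596.3 in pLKO, so that IBC-I was 2.10-fold and IBC-II 1.29-fold above pLKO while IBC-III was 2.65-fold below it. SAMD9, an antiviral factor that represses translation, had 31.2, 24.1 and 46.0, against 29.1 in pLKO. XAF1, a pro-apoptotic factor, was by its brightest probe set above the floor in IBC-I at 19.2 and in IBC-III at 26.5, and at the floor in IBC-II and pLKO. Another of its 3 probe sets was at the floor on all 3 DCD shRNA arrays and above it in pLKO, at 20.7. TRIM22, a ubiquitin ligase with antiviral activity, had deposited intensities of 5.9, 18 and 9.9, against 1.8 in pLKO.

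PARP9 and its ubiquitin ligase partner DTX3L are neighbours that are read in opposite directions from 1 promoter region. A single ISRE core at chr3:122564332-122564341 lies at positions -6 to 3 of DTX3L and, on the other strand, at positions -41 to -32 of PARP9, with positions counted from 0 at the first transcribed base. DTX3L had a normalized intensity of 237.8, 201.4 and 154.0 on the DCD shRNA arrays, against 154.5 in pLKO. PARP9 had 58.0, 32.8 and 36.2, against 56.3 in pLKO. DTX3L was 1.54-fold and 1.30-fold higher in IBC-I and IBC-II while PARP9 was 1.03-fold higher and 1.72-fold lower there. The direction of PARP9 in IBC-II turned with the probe set. Its second tested probe set had a log2 difference of 0.34 there. With median centring and as deposited that second probe set was the brightest, which gave 0.44 and 0.71. The probe set used here had deposited intensities of 42.7 in IBC-II and 63.1 in pLKO, so it was lower as deposited too.

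The rest of the pathway was read from lists of 72 further genes, of which 51 were tested. Their median log2 differences were 0.12, 0.073 and -0.10 for the 3 comparisons. At 3-fold in single comparisons, 1 was higher and 2 lower in IBC-I, 0 were higher and 0 lower in IBC-II, and 0 were higher and 5 lower in IBC-III. Over all tested genes, the shares were 1.47% higher and 2.44% lower in IBC-I, 0.589% and 1.03% for IBC-II, and 5.85% and 11.6% for IBC-III. The interferon beta gene IFNB1 had deposited intensities of 1.4 to 4.4 in the DCD shRNA arrays and 1.9 in pLKO, and was at the floor on all 4 arrays. Of 10 ligands 2 were tested: IFNL1 was 3.54-fold higher in IBC-I and 2.56-fold higher in IBC-III but at the floor in IBC-II, and IFNL2 was at least 1.91-fold lower in IBC-I, at the floor there, and 1.18-fold lower in IBC-III. Of 10 tested receptors and kinases, 2 were higher and 1 was lower in all 3 comparisons, beside 18.9% and 21.3% of all tested genes. The lower one was IFNAR2, a chain of the type I interferon receptor, at 1.53-fold, 1.46-fold and 1.71-fold. Of 10 tested sensors and adaptors, 2 were higher and 4 lower in all 3 comparisons, beside the same shares, with median log2 differences of -0.44, -0.089 and -0.51. The sensor RIGI was 1 of the 2 that were higher, by 1.73-fold, 1.16-fold and 1.39-fold. Its brightest probe set is however of the _x_at type, whose probes can bind other transcripts. The deposited intensity of RIGI in IBC-III was also lower, at 45.9 against 70.4 in pLKO. IKBKE, a kinase that activates the interferon regulatory factors, was the 1 gene of these lists at least 3-fold from pLKO the same way in at least 2 comparisons. It had deposited intensities of 12.1, 48.2 and 7.6 on the DCD shRNA arrays, against 63.4 in pLKO. IBC-I and IBC-III were at the floor, at least 3.53-fold below pLKO, and IBC-II was 1.55-fold below it. Its other probe set, which did not pass the filter, had log2 differences of -0.35, 0.35 and -0.17, and averaging both probe sets gave a mean log2 difference of -0.74, against -1.42 for the brightest. Of 22 other tested interferon-stimulated genes, 4 were higher and 3 lower in all 3 comparisons, beside the same 18.9% and 21.3% of all tested genes, with medians of 0.12, 0.13 and 0.0095.

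Hairpins are cut and loaded by the cell's own microRNA machinery, and 11 of 12 genes for it were tested. The 2 with the highest mean difference were DICER1, the nuclease that cuts hairpins, and AGO3, an Argonaute protein. DICER1 had deposited intensities of 690.9, 758.5 and 741.4 on the DCD shRNA arrays, against 313.3 in pLKO, so every DCD shRNA array was above pLKO before any normalization. After it DICER1 was 3.59-fold, 1.78-fold and 6.73-fold higher, with a mean log2 difference of 1.81 ± 0.96 (SD, n = 3 comparisons), and its other 2 tested probe sets also lay above pLKO on every DCD shRNA array after normalization, though not in IBC-III as deposited. With the mean of all 6 of its probe sets the mean log2 difference was 0.59, since 3 of them lie at the floor on all 4 arrays. AGO3 was 2.48-fold, 1.32-fold and 5.41-fold higher. For both genes the fold was largest in IBC-III and smallest in IBC-II, the arrays with the highest and lowest 3' to 5' ratio. The part of RNA quality in this was not tested. In IBC-III 3 of the 11 genes were at least 3-fold higher and 0 lower, beside 5.85% and 11.6% of all tested genes. The 2 with the lowest mean difference were PRKRA, a partner of Dicer that also activates PKR, at 2.00-fold, 1.21-fold and 2.88-fold lower, and AGO4, at 2.11-fold or more, 1.03-fold and 1.57-fold lower, and for both the sign in IBC-II turned in the values as deposited. The second tested probe set of PRKRA gave 0.14, -0.13 and 3.46 on the log2 scale, and that of AGO3 gave -0.027, 0.13 and 1.65. limma passed 0 of these genes at an adjusted p under 0.05, and the 3-fold rule in all 3 comparisons passed 0 as well.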

How the data were processed

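RNA of MDA-MB-361 cells was measured on 4 arrays, and groups were taken from the sample titles, with clones 1, 2 and 3 matched by number to the hairpin names of the study. Each deposited value is an intensity on a linear scale. The paper names dChip for the arrays, but which program gave the deposited intensities was not stated in those sources. Intensities of 0 were set to 0.1, and the arrays were quantile normalized, with a floor of 16 before log2. This scaling was chosen because the medians of the deposited arrays differ. After leaving out 62 control probe sets, 27307 of 54675 probe sets had a mean no lower than the median and were tested. Gene names came from the platform annotation (41097 probe sets with 1 gene, 1801 with several, 11777 unnamed here), with 41043 symbols updated through the gene identifier, and each was read by its brightest probe set of a single gene. STAT2 and other listed genes without such a probe set are not reported here. limma 3.58.1 (R 4.3.3) was fitted to all tested probe sets with Benjamini-Hochberg adjustment. It was tested on simulated data of 27307 probe sets, where 200 probe sets were changed by 4-fold: it found 100% of them with an SD of 0.1 and 0% with the spread of the DCD shRNA arrays. The members, lists and rules were chosen with earlier results of these data known. All members that passed the filter are named with their values. Other pathway genes are named at 3-fold in at least 2 comparisons, and the RNA interference genes are the 2 highest and 2 lowest. Names outside this rule were chosen after their values were seen. Alternatives covered scaling, floor, filter, probe set, fold and each DCD shRNA array left out. The hairpin sequences were not used here. Promoter windows are from RefSeq (GRCh38.p14). Figures were drawn with matplotlib 3.10.9.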

Additional observations from a re-analysis of the deposited data

Results flagged for a closer look

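The 3' to 5' ratios of the control probe sets, which no comparison uses, were flagged because they lie above the level of the pLKO array. In IBC-III the ratio was 42.6 for actin, against 5.29 in pLKO, and 13.1 for GAPDH, against 1.09 in pLKO. IBC-III also held all 3 members that were at least 3-fold lower than pLKO, OAS3, IFITM2 and IFITM3. They are 11.5% of the tested members, close to the 11.6% of all tested genes in IBC-III. The part of RNA quality in these values was not tested.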

How the results depend on the processing

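Of the interferon-stimulated genes, 0 passed an adjusted p of 0.05 under every alternative run, with limma, limma with trend and the methods' paired test; at an unadjusted p under 0.05 it was 1 with a floor of 64, 1 without a filter and 2 with the paired test. The median log2 differences of the members in IBC-I, IBC-II and IBC-III were -0.18, 0.13 and -0.28 with median centring and -0.23, 0.39 and -0.90 as deposited. Over all tested genes the medians were -0.38, 0.088 and -0.54 with median centring and -0.43, 0.36 and -1.08 as deposited, so relative to all genes the members lay 0.20, 0.038 and 0.26 above them with median centring and 0.20, 0.030 and 0.18 above them as deposited. With the upper quartile filter, which left 10 members, the medians were 0.31, -0.14 and 0.13. In IBC-II the median was 0 with a floor of 64 and without a filter, 0.15 with the mean of all probe sets and -0.18 without _x_at probe sets.

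Members at least 3-fold higher numbered 3 in IBC-II as deposited (IFITM3, IFI6 and IFI35), and 1 in IBC-I and 1 in IBC-II with a floor of 1 (IFI6 in both). Members at least 3-fold lower numbered 2 in IBC-I with a floor of 1, and in IBC-III 5 with median centring, 6 as deposited, 0 with a floor of 64 and 1 without _x_at probe sets. At 2-fold, 4, 4 and 2 members were higher and 2, 0 and 6 lower in IBC-I, IBC-II and IBC-III. Of all tested genes, 7.85%, 3.61% and 15.7% were 2-fold higher and 9.51%, 4.58% and 23.2% lower. At 1.5-fold, 8, 4 and 7 were higher and 5, 1 and 9 lower. Members higher in all comparisons numbered 1 with a floor of 64, with the upper quartile filter (ISG15 in both) and as deposited (OASL). Members lower in all comparisons numbered 5 with median centring, 7 as deposited and 1 with a floor of 64 and with the upper quartile filter (ISG20 in both). At 1.5-fold and under these other settings the shares of all tested genes were not counted, so the counts do not set the members apart. As deposited, the medians of all tested genes were themselves 0.36 in IBC-II and -1.08 in IBC-III.

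Leaving out each DCD shRNA array in turn gave medians of -0.075 to 0.063 for IBC-I, 0.069 to 0.070 for IBC-II and -0.0022 to 0.034 for IBC-III. Without an array, members higher in all remaining comparisons numbered 4 to 8 and members lower 4 to 8. Without IBC-III, 8 were higher and 8 lower in both other comparisons, where 31.2% and 30.8% of all tested genes were, without IBC-II it was 7 and 6 (30.8% and 32.7% of all tested genes), and without IBC-I 4 and 4 (24.4% and 29.2%). The counts at 3-fold in single comparisons stayed at 0 higher in each, and at 3 lower in IBC-III and 0 lower in IBC-I and IBC-II, without any 1 array. No paired analysis was possible because the pLKO group has 1 array, so no replicate block could be fitted. The methods' paired test sets every DCD shRNA array against that same pLKO array, and its p-values leave out the spread of pLKO. With a floor of 64 the filter keeps every probe set, since the median probe set lies at the floor, and limma is unreliable there because most probe sets have no spread. Low signal limits what can be read: 14 of 34 members were at the floor on at least 1 array.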
